A study of Mus musculus with 2 samples.

Results

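The genes described here are 9 that make, load or switch on MHC class II, the surface molecule that shows peptides to CD4 T cells. They were taken by name from the 32285 genes of the deposited matrices: H2-Aa, H2-Ab1, H2-Eb1, Cd74, H2-DMa, H2-DMb1, H2-DMb2, H2-Oa and Ciita. All 9 were found. The study sorted immune cells by flow cytometry from day 21 tumours of MC38, a transplantable murine colon cancer line, and made droplet 3′ single-cell RNA-seq libraries from them. There is 1 group, with 2 libraries that the labels number as replicates. Strain, genotype, age and number of animals are not given in the labels, nor is any treatment, and nothing there says that the replicates are separate animals. The names of the files differ between the libraries by a term for which the labels have no entry. It was not used, so a difference between the libraries may rest on something the labels leave unsaid.

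A class II molecule is a pair of an alpha and a beta chain. H2-Aa and H2-Ab1 encode the pair called I-A, and H2-Eb1 the beta chain of I-E. In the endoplasmic reticulum the pairs bind the invariant chain, encoded by Cd74, which blocks the groove and steers them to endosomes. Proteases there cut the invariant chain down, and H2-DM, a dimer of H2-DMa with either H2-DMb1 or H2-DMb2, removes the last fragment and lets peptides bind. H2-O, whose alpha chain is H2-Oa, holds H2-DM back. Ciita encodes the coactivator that switches this set of genes on. It binds no DNA itself and works through factors on the X and Y boxes of class II promoters. Dendritic cells and B cells express these genes as a rule, macrophages raise them under interferon gamma, and mouse T cells and most non-immune cells are held to have little of them.

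Positions are from GENCODE release M21 on GRCm38, the assembly also called mm10. The 7 H2 genes lie on chromosome 17 between 34092340 and 34316674, in the order H2-Oa, H2-DMa, H2-DMb2, H2-DMb1, H2-Ab1, H2-Aa and H2-Eb1. H2-Aa is on the minus strand, from 34282744 to 34287823, and the others are on the plus strand. The promoter stretches of H2-Aa, H2-Eb1 and H2-DMb2 are shown because they carry the X and Y boxes these genes share. They are from RefSeq on GRCm38 and run 5′ to 3′ on the gene's strand. Those of H2-Aa and H2-Eb1 lie just 5′ of the first exon. That of H2-DMb2 lies before the RefSeq start but inside the GENCODE gene, which begins at 34143307. Capitals mark the Y box (TGATTGG), the X box (AACNGATG) in H2-Eb1 and H2-DMb2, and the X box core (GCAAC) in H2-Aa.
H2-Aa, chr17:34287824-34287963, minus strand: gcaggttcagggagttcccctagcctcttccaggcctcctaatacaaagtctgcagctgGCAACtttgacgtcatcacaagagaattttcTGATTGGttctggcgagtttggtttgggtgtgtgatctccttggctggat
H2-Eb1, chr17:34305727-34305866, plus strand: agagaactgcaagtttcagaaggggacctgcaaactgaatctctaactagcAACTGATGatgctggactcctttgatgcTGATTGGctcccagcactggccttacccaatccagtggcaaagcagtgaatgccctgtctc
H2-DMb2, chr17:34145109-34145235, plus strand: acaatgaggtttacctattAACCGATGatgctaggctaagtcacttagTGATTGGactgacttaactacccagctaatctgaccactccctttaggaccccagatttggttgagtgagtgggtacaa

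Both strands of 300 bases per promoter, 250 before the start and 50 from it on, were searched for each motif. RefSeq's table held promoters for 6 of the 9 genes: H2-Aa, H2-Eb1, H2-DMa, H2-DMb1, H2-DMb2 and H2-Oa. The Y box was in 5 of the 6, all but H2-DMa, and in 7.82% of 32851 promoters. H2-Eb1, H2-DMb1 and H2-DMb2 also held the X box, which 2.32% of promoters hold. In these 3 genes the Y box followed it after 20, 21 and 21 bases. An X box with a Y box 10 to 30 bases after it stood in 6 promoters, 0.0183% of all: those 3 genes, H2-Eb2, BC051142 and H2-M10.4. H2-Aa and H2-Oa held the shorter X box core, 26 bases before the Y box in each. That core is common, at 35.2% of promoters, and in H2-Eb1 it overlaps the X box by its last bases. These matches describe letters and do not show binding.

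**Figure D1:**
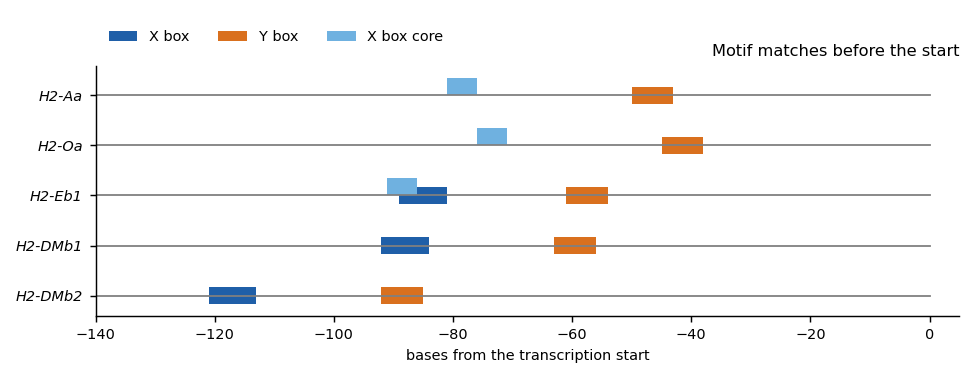
Positions of the X box, X box core and Y box in 5 class II promoters, as bases before the transcription start on the x axis, with 1 line per gene. The Y box starts between 92 and 45 bases before the start, and an X box or core stands 20 to 26 bases ahead of it in each of the 5.

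The deposited matrices hold 2749 and 2937 barcodes with 5688000 and 5862342 UMIs, for replicates 1 and 2. After filtering, 2380 and 2796 barcodes remained, with a median of 1491.5 and 1378.5 UMIs, and the libraries shared 0 barcodes. Each barcode was placed in 1 of 8 classes by marker genes that do not include the 9 genes, which left 1809 and 1904 barcodes in a class. Macrophages (5 or more C1q UMIs) numbered 971 and 721 and type 2 dendritic cells (2 or more Mgl2 and Napsa UMIs) 61 and 27. T cells (2 or more Cd3 UMIs) numbered 40 and 129, and Ptprc-negative barcodes (no Ptprc, Tyrobp or Cd3 UMI) 688 and 998. The last lack these transcripts although the cells were sorted as immune cells, but C1q UMIs were seen in 21.5% and 16.1% of them. In them Col1a1, Col3a1, Sparc, Krt8, Krt18 and Epcam summed to 8.60 and 14.4 UMIs per 10000, with Epcam at 0 in both libraries and Krt8 and Krt18 also at 0 in replicate 1, so neither a tumour nor a stromal name is given. Type 1 dendritic cells (Xcr1, 28 and 6), mature dendritic cells (Ccr7, 4 and 6), plasmacytoid dendritic cells (Siglech, 11 and 3) and neutrophils (6 and 14) had under 10 barcodes in a library. For these, levels are described, and tests were run only with barcodes of 2 gates kept. That setting adds barcodes that pass the gate of a class and the macrophage gate as well: 26 of 54 and 21 of 27 type 1 dendritic barcodes, 69 of 130 and 45 of 72 of type 2, 7 of 11 and 6 of 12 mature ones, 12 of 18 and 10 of 24 neutrophils and 61 of 101 and 132 of 261 T cells. In that setting a class compared with macrophages holds many barcodes that are gated as macrophages too.

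The libraries stand apart in more than class II genes. In macrophages Lyz2, the lysozyme gene of myeloid cells, gave 68.2 UMIs per 10000 in replicate 1 and 0.152 in replicate 2. Xist gave 5.89 and 0, and 4 Y-linked genes together 0 and 1.06, so these cells do not come from the same single animal. Trem2 stood at 5.81 and 1.23 and Apoe at 169 and 42.0 in the replicates in turn, while Il1b stood at 0.433 and 6.14 and Ly6i at 0.0683 and 1.97. Every class comparison below is therefore made within libraries, with the library as a block. The p-values measure only how class differences varied between these 2 libraries, and sex and other differences between them cannot be told apart.

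All levels are UMIs per 10000 UMIs of the class. A 3′ library counts about 1 tag per transcript, so genes are compared without a length correction. Intervals are exact at 95% and cover counting error only. In macrophages Cd74 had the highest level of the 9 genes in both libraries, and the chain genes and Cd74 were each higher in replicate 2. H2-Aa was at 23.6 and 53.5 in replicates 1 and 2, H2-Ab1 at 25.5 and 66.4, H2-Eb1 at 29.0 and 57.2, and Cd74 at 40.1 and 73.5. The share of macrophage barcodes with an H2-Aa UMI was 72.6% and 97.6%, against 14.7% and 16.7% of Ptprc-negative barcodes, whose median depth was greater (1747 and 2064.5 UMIs, against 1312 and 1227). With 2 libraries that differ this much, the mean for H2-Aa is 38.6 ± 21.1 (SD, n = 2).

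The ratio of replicate 2 to replicate 1 was not the same for each gene in macrophages. It was 2.60 for H2-Ab1 (interval 2.51 to 2.70), 2.26 for H2-Aa (2.18 to 2.36), 1.97 for H2-Eb1 (1.90 to 2.05) and 1.83 for Cd74 (1.77 to 1.89). The 4 genes summed to 118 and 251 per 10000, a ratio of 2.12 (2.08 to 2.16). Type 2 dendritic cells went the other way, from 264 to 202 (0.763, 0.708 to 0.822), but with barcodes of 2 gates kept the ratio was 1.22 (1.17 to 1.27), from 208 to 254. Ptprc-negative barcodes stayed near 6, at 6.01 and 5.77 (0.961, 0.891 to 1.04). The libraries have no labelled difference, so these ratios are values of 2 libraries and no test of a condition.

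**Figure D2:**
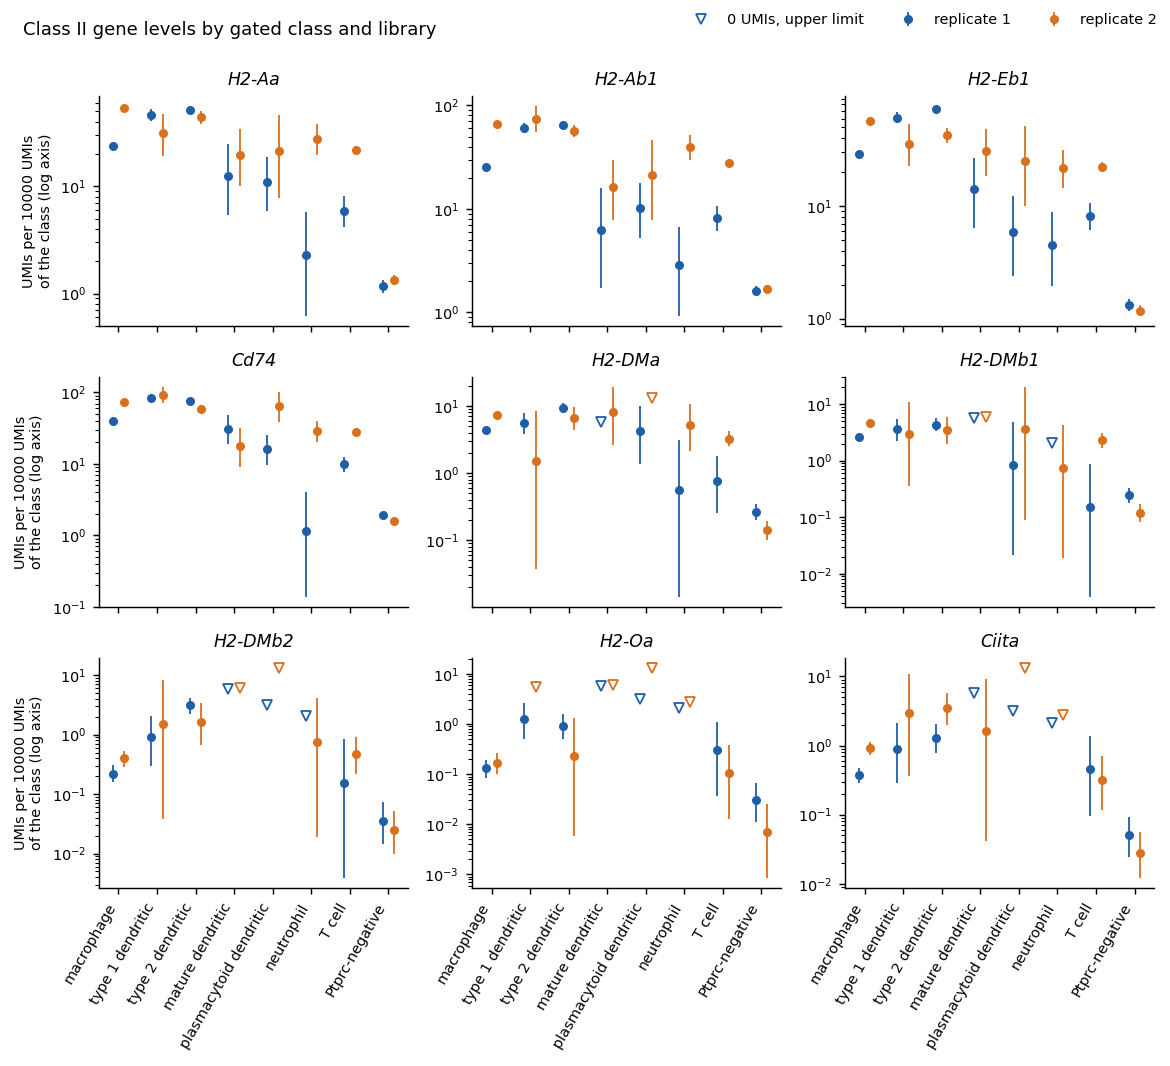
Level of each of the 9 genes (UMIs per 10000 UMIs of the class, log axis) in 8 gated classes, with 1 point per library, exact 95% Poisson intervals as bars, and open triangles for the upper limit where no UMI was seen. Macrophage points of replicate 2 lie above those of replicate 1 in all 9 panels, and Ptprc-negative points are the lowest for the chains and Cd74, at 1.17 to 1.90 per 10000, except that Cd74 in neutrophils of replicate 1 is at 1.13.

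Dendritic cells of types 1 and 2 had the highest mean class II levels, although in replicate 2 macrophages, at 251, stood above both (234 and 202). For H2-Aa, H2-Ab1, H2-Eb1 and Cd74 together, type 1 dendritic cells were at 242 ± 12.2 (SD, n = 2 here and below), type 2 at 233 ± 44.2 and macrophages at 184 ± 93.6. Then came plasmacytoid dendritic cells at 87.5 ± 62.5, mature dendritic cells at 74.3 ± 14.4, T cells at 65.8 ± 47.6, neutrophils at 64.4 ± 75.9 and Ptprc-negative barcodes at 5.89 ± 0.167. Library values of each pair of neighbours in this order overlap, except those of neutrophils and Ptprc-negative barcodes. Cd74 by itself was at 82.6 and 92.3 in type 1 dendritic cells and at 75.7 and 58.3 in type 2. H2-Aa was at 46.5 and 31.2 in type 1 and at 51.9 and 44.0 in type 2.

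Against macrophages, type 2 dendritic cells had no called difference in a chain gene or Cd74. The edgeR log2 fold changes were 0.55 for H2-Ab1, 0.50 for H2-Eb1, 0.46 for H2-Aa and 0.29 for Cd74, and for each the libraries had opposite signs. In replicate 1 by itself, after TMM scaling, the difference was 1.49 for H2-Ab1, 1.49 for H2-Eb1, 1.30 for H2-Aa and 1.08 for Cd74. In replicate 2 it was -0.49 for H2-Ab1, -0.55 for H2-Aa, -0.60 for Cd74 and -0.69 for H2-Eb1. The scaling itself added 0.17 in replicate 1 and -0.25 in replicate 2. The log2 ratios of the plain levels ran from -0.23 for H2-Ab1 to -0.42 for H2-Eb1 in replicate 2. Of the 9 genes, 1 was called higher in type 2 dendritic cells by edgeR, H2-DMb2, described with the editors below, where 0.241% of 7051 tested genes were called higher, and 0 were called lower (0.752% of genes). The median of the 9 genes was 0.50, and that of all tested genes -0.19. All comparisons with macrophages share the same macrophage counts.

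The gate for type 2 cells was checked on markers it did not use. Cd209a, Itgax, Ccr2, Flt3 and Clec10a summed to 6.35 (5 of 5 detected) and 5.38 (4 of 5, Clec10a at 0) in type 2 dendritic cells, against 2.53 and 5.27 in macrophages, so in replicate 2 this list hardly separated the classes. The macrophage list (Csf1r, Apoe, Ms4a7 and Adgre1, 4 of 4 detected) summed to 12.3 and 19.4 in type 2 dendritic cells and to 183 and 54.6 in macrophages. Its part in the values of type 2 cells was not tested.

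With barcodes of 2 gates kept, the class sizes allowed tests of type 1 and mature dendritic cells and of neutrophils. Type 1 dendritic cells had 0 of 9 genes called against macrophages by edgeR, 0 at an unadjusted p under 0.05 and 0 called by DESeq2, where edgeR called 0.118% of 4241 genes in either direction and DESeq2 0%. Their log2 fold changes ran from 0.13 to 1.29, and C1q was at 41.7 and 103.8 in them, against 103.6 and 85.2 in macrophages. Neutrophils also had 0 of 9 called by edgeR (6 at an unadjusted p under 0.05) and 0 by DESeq2, where edgeR called 0.613% of genes and DESeq2 0.34%. Their levels differed by library: Cd74 was at 18.6 and 55.9 in the 18 and 24 barcodes tested, and at 1.13 and 28.6 in the 6 and 14 that passed the neutrophil gate only.

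Mature dendritic cells, named only by the Ccr7 gate, had 3 of the 9 genes called lower than in type 2 dendritic cells and 0 higher. Ccr7 marks the type that moves to lymph nodes. With 2 gates kept there were 11 and 12 such barcodes, of which 7 and 6 also passed the macrophage gate. Among type 2 dendritic barcodes 69 of 130 and 45 of 72 passed it too. H2-Ab1 was at 12.7 and 36.5 in them and at 48.8 and 69.1 in type 2 dendritic cells, a log2 fold change of -2.08 (SE 0.35, edgeR quasi-likelihood test, Benjamini-Hochberg adjusted p = 0.000378). Cd74 (-1.32) and H2-DMb1 (-2.83) were lower too, each with an adjusted p of 0.0401 in edgeR. The H2-DMb1 value rests on very few UMIs in mature dendritic cells, where its ratio of replicate 2 to replicate 1 was 1.69 (0.123 to 23.3). The 3 of 9 genes called lower stand beside 0.377% of all genes called lower. The median of all tested genes in this comparison was itself at -0.61, and at -0.11 with RLE scaling. In the libraries by themselves Cd74 stood between -1.16 and -0.92 and H2-DMb1 between -2.68 and -2.31, smaller drops than in the fit. H2-Ab1 stood between -2.27 and -1.33. Without the library block 0 of 9 were called (7 at an unadjusted p under 0.05), and with RLE scaling or with DESeq2 1 was (0.121% of genes lower in DESeq2). Against macrophages only H2-Ab1 was called lower, at -1.57 (SE 0.34, edgeR adjusted p = 0.0142, 3.54e-06 to 0.575 over the alternatives), where 0.424% of genes were.

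H2-Ab1 was the smallest of the chains' shares in mature dendritic cells. It gave 17.2% and 29.6% of their chain UMIs, while H2-Eb1 gave 47.4% and 37.1%. In macrophages the shares were 32.6% and 37.5% for H2-Ab1 and 37.1% and 32.3% for H2-Eb1. Macrophage markers summed to 160.4 and 23.2 per 10000 in the mature barcodes with 2 gates kept. Their part in these values was not tested. In the few barcodes that passed the Ccr7 gate only, H2-Ab1 was at 6.25 and 16.2.

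T cells had transcripts of the 3 chains and Cd74 at levels between those of macrophages and of Ptprc-negative barcodes in each library. The rarer H2-DMb2, H2-Oa and Ciita did not keep this order in each library. H2-Aa was at 5.88 and 21.7 per 10000 in T cells, with a UMI in 30% and 69.0% of barcodes at a median depth of 1232.5 and 1200 UMIs. Cd74 was at 9.90 and 27.7, H2-Ab1 at 8.2 and 27.8 and H2-Eb1 at 8.2 and 22.3. As in macrophages, replicate 2 was the higher library, by 3.09 times for the sum of the 4 (2.68 to 3.58).

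In edgeR's test against macrophages these 4 genes were lower in T cells, and none of the other 5 was called. The 4 stand beside 1.49% of genes called lower, and 1.04% were called higher. Cd74 stood at -1.66 on the log2 scale (SE 0.37), with an edgeR adjusted p of 0.00465, H2-Aa at -1.57 (adjusted p = 0.0107), H2-Eb1 at -1.55 (0.0139) and H2-Ab1 at -1.42 (0.0240). Each was lower in both libraries, with Cd74 at -2.16 in replicate 1 and -1.42 in replicate 2. The median of the 9 genes was -1.42 and that of all genes -0.13. The calls were not kept by every test. DESeq2 called 0 of the 9 lower (5 at an unadjusted p under 0.05, where 3.29% of genes were called lower), and edgeR without the library block 0 (5 at an unadjusted p under 0.05), with Cd74 at -1.62 and -1.67. With barcodes of 2 gates kept, most of which also passed the macrophage gate, edgeR called 0 of 9 (1 at an unadjusted p under 0.05, where 1.23% of genes were called). Over all alternatives the adjusted p of Cd74 ran from 3.92e-06 to 1.

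**Figure D3:**
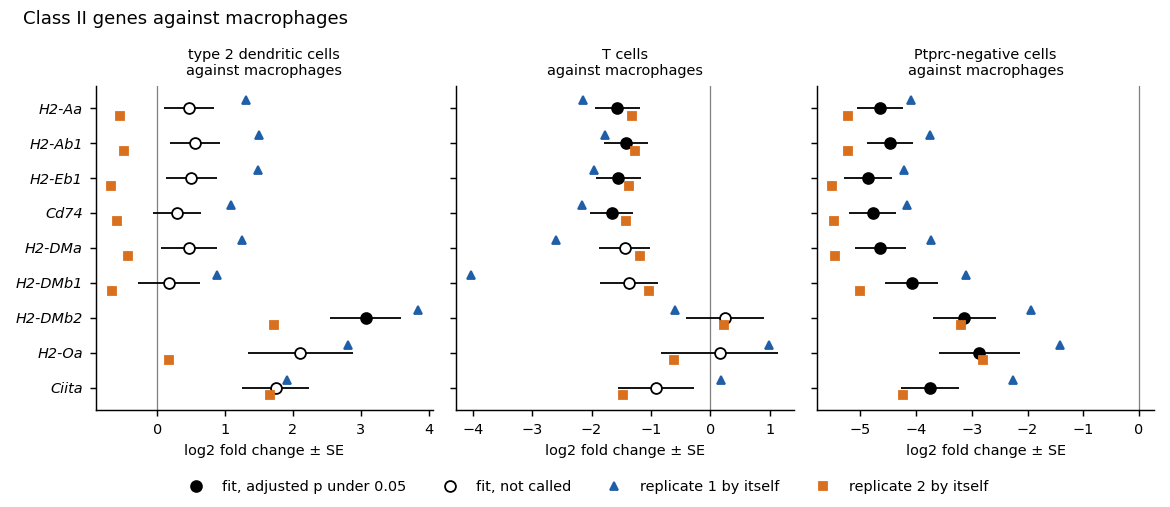
Log2 fold change against macrophages with its standard error for the 9 genes in type 2 dendritic cells, T cells and Ptprc-negative barcodes. Black circles are edgeR estimates, filled where the adjusted p is under 0.05, and triangles and squares are replicates 1 and 2 by themselves. The 9 filled points of the Ptprc-negative panel lie between -2.87 and -4.86, while in the first panel the chain genes of the libraries fall on opposite sides of 0.

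T cell barcodes also held macrophage transcripts. The class II sum was 27.2% and 39.7% of the macrophage level, C1q was 3.13% and 8.62% of it, and the macrophage list 6.33% and 24.8%. The class II to C1q ratio was 9.90 and 13.5 UMIs in T cells, against 1.14 and 2.94 in macrophages. The T cell gate leaves out barcodes with 5 or more C1q UMIs, which raises this ratio. With no limit on C1q it was 1.07 and 3.83. In T cells without any C1q UMI, the class II sum was 26.9 and 74.7 per 10000, still 22.8% and 29.8% of the macrophage level. The macrophage list was at 4.30% and 18.7% of that level there.

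Markers of other antigen-presenting cells were seen in T cells too. The type 2 dendritic list summed to 1.55 and 4.0 (3 of 5 detected in each), beside 6.35 and 5.38 in type 2 dendritic cells and 2.53 and 5.27 in macrophages, with Flt3, the receptor common to dendritic cells, at 0 in both libraries. The B cell list (Cd79a, Cd79b, Ms4a1 and Ly6d) was at 0 in replicate 1 and at 0.0533 in replicate 2, 1 of 4 detected. T cell markers summed to 17.6 and 17.2 (5 of 5), against 1.17 and 2.98 in macrophages. T cells with a Cd8 UMI had class II sums of 43.9 and 104, and those without one 29.1 and 94.3. The part of macrophage or dendritic RNA in the class II UMIs of T cells was not tested.

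Class II UMIs were not evenly spread over T cells. In barcodes thinned to 800 UMIs, 20 of 32 T cells of replicate 1 had none and the 90th percentile was 16.3. In replicate 2, 18 of 104 had none, the median was 6 and the highest barcode held 22. Without thinning, over all 40 and 129 T cells, the 5% with the most held 38.5% and 22.6% of the class II UMIs. These were 2 and 7 barcodes. In macrophages that share, also without thinning, was 26.3% and 16.1%. Depth of the barcodes enters these shares.

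Ptprc-negative barcodes had little of each of the 9 genes. All 9 were called lower than in macrophages by edgeR, where 20.6% of genes were called lower and 15.9% higher. Log2 fold changes were -4.86 for H2-Eb1, -4.78 for Cd74 (adjusted p = 2.61e-12), -4.65 for H2-Aa and -4.47 for H2-Ab1. The median of the 9 was -4.47 and that of all genes 0.05. Of the 9, H2-Oa lost its call when barcodes were thinned to 800 UMIs (edgeR adjusted p = 0.245), and the others were called under every alternative run.

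The few class II UMIs of this class were concentrated. With 800 UMIs per barcode, 82.5% and 79.4% of Ptprc-negative barcodes had none, while the highest held 31 and 34. Without thinning, the 5% of barcodes with the most, 35 and 50 of them, held 63.2% and 63.1% of the class II UMIs, so depth enters these shares. Class II was 5.08% and 2.30% of the macrophage level, C1q 1.14% and 0.897%, and macrophage markers 1.92% and 1.82%. In barcodes with 0 C1q UMIs class II was still 3.97% and 1.60% of it.

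**Figure D4:**
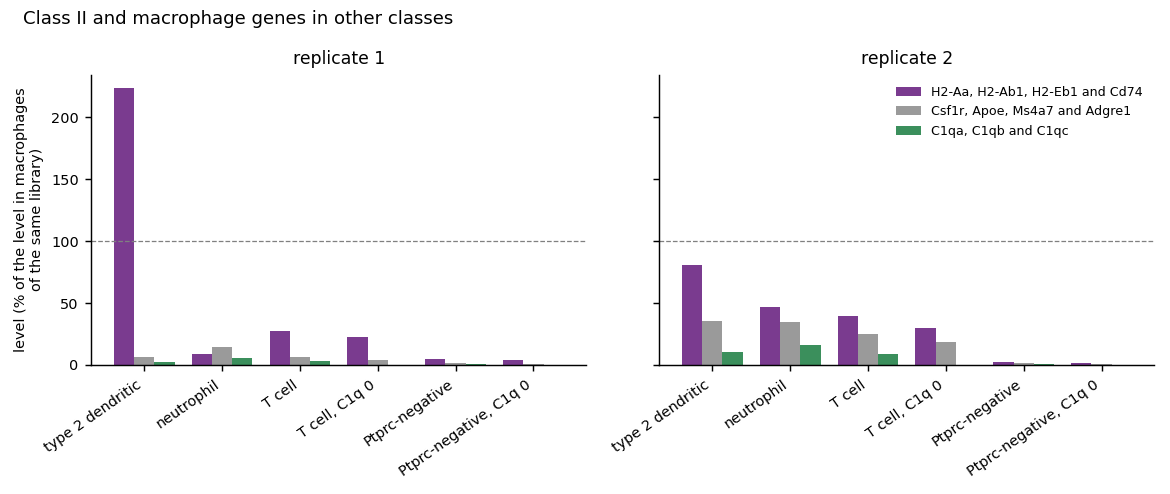
Level of the class II sum, the macrophage marker list and C1q in 6 sets of barcodes, as a percentage of the level in macrophages of the same library (y axis, dashed line at 100). In T cells and Ptprc-negative barcodes the class II bar is the highest of the 3 in both libraries, at 39.7% of the macrophage level for T cells of replicate 2 beside 24.8% for macrophage markers.

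The invariant chain gene, Cd74, lies apart from the H2 genes on chromosome 18, from 60803848 to 60812652 on the plus strand. In the 4 larger classes it kept close to the chains in level. Cd74 gave 0.513 and 0.415 UMIs per chain UMI (H2-Aa, H2-Ab1 and H2-Eb1 together) in macrophages, 0.402 and 0.407 in type 2 dendritic cells, 0.444 and 0.385 in T cells and 0.462 and 0.372 in Ptprc-negative barcodes. In 3 of these 4 classes the ratio was lower in replicate 2. Between these 4 classes it moved less than the levels did. In classes of few barcodes it ranged further, from 0.118 in neutrophils of replicate 1 (17 chain UMIs) to 0.952 in mature dendritic cells of replicate 1 (21 chain UMIs).

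The peptide editors were far below the chains. H2-DMa was at 4.35 and 7.38 per 10000 in macrophages, 9.24 and 6.55 in type 2 dendritic cells, 0.773 and 3.25 in T cells and 0.265 and 0.142 in Ptprc-negative barcodes. H2-DMb1 was at 2.62 and 4.67 in macrophages and 4.33 and 3.51 in type 2 dendritic cells. The UMIs of the 3 H2-DM genes came to 9.20% and 7.03% of the chain UMIs in macrophages and 8.85% and 8.17% in type 2 dendritic cells. Neither H2-DMa (log2 fold change 0.47) nor H2-DMb1 (0.18) was called between these classes.

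H2-DMb2, the other beta chain of H2-DM, was the member called higher in type 2 dendritic cells than in macrophages. It gave 0.222 and 0.400 UMIs per 10000 in macrophages (39 and 42 UMIs) and 3.10 and 1.64 in type 2 dendritic cells (43 and 7 UMIs). A UMI was seen in 49.2% and 22.2% of type 2 dendritic barcodes, against 3.60% and 5.27% of macrophages and 1.02% and 0.601% of Ptprc-negative barcodes. The library values of these 2 classes do not overlap, but the replicate 2 value of type 2 dendritic cells rests on 7 UMIs. How many of all genes separate in this way was not counted, so the separation itself is no support. The log2 fold change was 3.07 (SE 0.53, edgeR adjusted p = 0.000332), with 3.84 in replicate 1 and 1.72 in replicate 2 by themselves. Over the alternatives the adjusted p ran from 1.22e-06 to 0.0706, the last without the library block. With barcodes of 2 gates kept it was 2.38 (edgeR adjusted p = 0.0131, where 0.0943% of genes were called higher). That call was lost with DESeq2 (0.00605% of genes higher) and without the block, and its adjusted p ran from 2.16e-07 to 1 over the alternatives.

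The share of H2-DMb2 in the H2-DMb UMIs was larger in type 2 dendritic cells than in macrophages, which was not tested. It was 7.82% (5.62 to 10.5) and 7.89% (5.75 to 10.5) in macrophages. Type 2 dendritic cells were at 41.7% (32.1 to 51.9) and 31.8% (13.9 to 54.9), and at 33.2% and 20.3% with barcodes of 2 gates kept. Type 1 dendritic cells were at 20% and 33.3%, from 5 and 1 H2-DMb2 UMIs, and at 19.7% and 4.0% with 2 gates kept. T cells stood at 50% (1.26 to 98.7) and 17.3%, and Ptprc-negative barcodes at 12.7% and 17.1%. H2-DMb1 and H2-DMb2 are alike in part: their transcripts are 69.1% identical, with a shared run of 221 bases. The last 300 bases, where 3′ reads fall, are 64.6% identical with a longest shared run of 23. Reads within shared runs could have been dropped as ambiguous, which was not tested.

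H2-Oa was rare in each class. It was at 0.131 and 0.172 per 10000 in macrophages and 0.938 and 0.234 in type 2 dendritic cells, the last from 1 UMI. The log2 fold change of 2.11 (SE 0.78) was not called, with an edgeR adjusted p of 0.369, and the libraries by themselves gave 2.81 and 0.17 after scaling. No H2-Oa UMI was seen in mature dendritic cells, plasmacytoid dendritic cells or neutrophils, where 3 UMIs would be worth 1.70 to 10.7 per 10000, above the level in macrophages. A difference there was not detectable at this depth. H2-Ob, the partner of H2-Oa, was at 0.0797 and 0.0762 in macrophages.

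Ciita, the transactivator, lies on chromosome 16, from 10480059 to 10528418 on the plus strand, and was a low transcript in every class. It was at 0.370 and 0.915 per 10000 in macrophages (65 and 96 UMIs), a ratio of 2.47 between the libraries (1.79 to 3.44) beside 2.12 for the chains and Cd74. In type 2 dendritic cells it was at 1.30 and 3.51 (18 and 15 UMIs), higher than in macrophages in each library. The log2 fold change of 1.75 (SE 0.49) was not called, with an edgeR adjusted p of 0.0819, from 0.0207 to 0.705 over the alternatives. T cells gave 3 and 6 Ciita UMIs, 0.464 and 0.320 per 10000, not called against macrophages (-0.92, edgeR adjusted p = 0.677). Ptprc-negative barcodes were at 0.0510 and 0.0283, lower by edgeR (-3.75, adjusted p = 1.39e-07).

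Within macrophages, barcodes with a Ciita UMI held more class II UMIs. Ciita UMIs were scored before thinning, and the sum of the 4 genes in the same barcodes after thinning to 800 UMIs. The median of that sum was 14 in 52 barcodes with a Ciita UMI and 7 in 721 without in replicate 1. In replicate 2 it was 22 in 77 against 19 in 547. Barcodes with a Ciita UMI were also deeper before thinning, with medians of 2269 against 1549 and 1761 against 1289 UMIs, and the part of depth in this difference was not tested. In type 2 dendritic cells the medians were 21 against 22 in replicate 1 and 22 against 15 in replicate 2.

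Macrophages of replicate 1 spread widely in class II. At 800 UMIs per barcode, the sum of H2-Aa, H2-Ab1, H2-Eb1 and Cd74 had a 10th percentile of 0, a median of 8, a 90th percentile of 21 and a highest value of 48 over 773 barcodes, and 12.4% had none. In replicate 2 the 10th percentile was 9, the median 19, the 90th percentile 33 and the highest value 56 over 624 barcodes, and 0.481% had none. Type 2 dendritic cells had medians of 21.5 and 16.

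**Figure D5:**
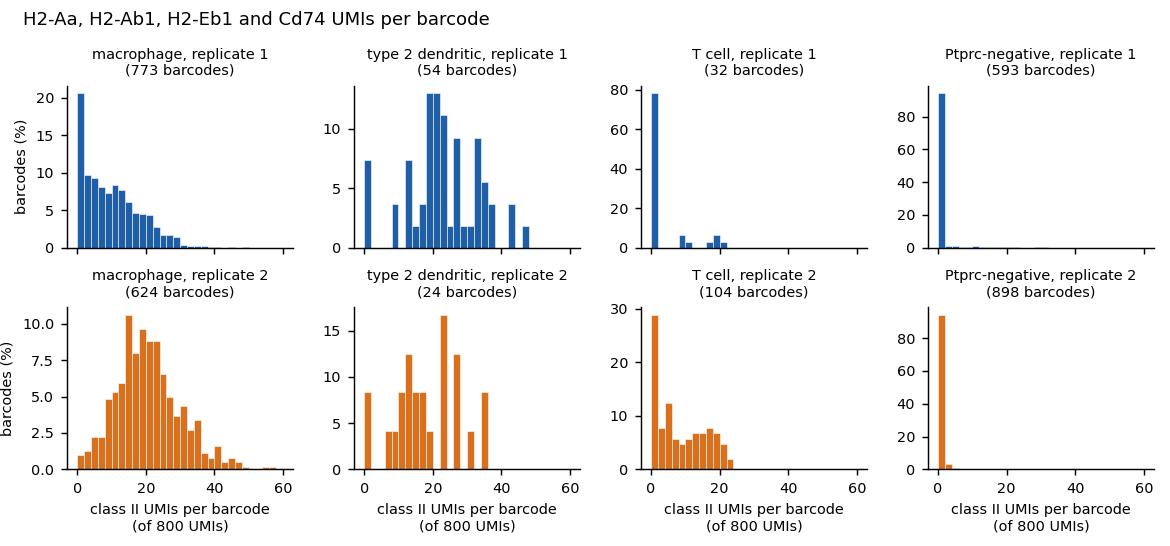
Histograms of H2-Aa, H2-Ab1, H2-Eb1 and Cd74 UMIs per barcode (x axis) in barcodes thinned to 800 UMIs, as a percentage of barcodes (y axis), for 4 classes and both libraries. Macrophages of replicate 1 pile up near 0 with a median of 8, those of replicate 2 centre on 19, and most Ptprc-negative barcodes are at 0.

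In replicate 1, 206 macrophages with at most 2 class II UMIs were set beside 207 with 15 or more. Since class II UMIs made the split, the following is a description of other genes. C1q was close, at 100 and 102 per 10000. The few-UMI macrophages had more Trem2 (7.22 against 4.35), Fcrls (3.64 against 1.09) and Stab1 (4.0 against 1.99), genes of resident-like and lipid-associated macrophages. They had less H2-DMa (1.76 against 7.55), H2-DMb1 (0.971 against 4.41) and Ifi30 (4.25 against 7.13). Mki67, a proliferation gene, was at 1.15 against 0.483. In replicate 2 only 7 macrophages were in the lower set and 450 in the higher, too few for the same view.

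The 4 abundant genes moved together from barcode to barcode. Over thinned macrophages H2-Aa and H2-Eb1 had a Pearson correlation of 0.603 and 0.415, H2-Aa and H2-Ab1 of 0.577 and 0.393 and H2-Ab1 and Cd74 of 0.590 and 0.421, over 773 and 624 barcodes that share a library and a depth. H2-Aa with H2-DMa gave 0.208 and 0.143, and with Ciita 0.0885 and 0.0228. The last 2 pairs involve sparse counts, and such values are no finding.

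Macrophages were also split by whichever sum was larger, Trem2, Fcrls and Stab1 or Il1b, Ly6i and Clec4n. That gave 624 and 69 Trem2-type and 45 and 432 inflammatory barcodes, so most of each kind come from a different library. Trem2-type macrophages had class II sums of 108 and 190 per 10000 and inflammatory ones 179 and 267, lower in the Trem2-type within each library. By edgeR 0 of 8 tested genes were called (1 at an unadjusted p under 0.05) and 0 by DESeq2, where edgeR called 0.147% of genes in either direction and DESeq2 0.0123%, and the log2 fold changes ran from -0.55 to -1.09. Within a kind the libraries still differed, with replicate 2 higher by 1.76 times in Trem2-type and 1.49 times in inflammatory macrophages.

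Of 26 other pathway genes reported here, 25 are in the files and 20 were tested between the 4 larger classes. H2-Ea, the alpha chain of I-E, has no entry under that name among the genes of the matrices, so it could not be analysed. Among 7 genes of antigen processing, 3 were lower in type 2 dendritic cells than in macrophages and 0 higher, beside 0.752% and 0.241% of all genes. Lgmn, the asparagine endopeptidase, was at 6.78 and 7.04 in macrophages and 0.144 and 1.40 in type 2 dendritic cells (log2 fold change -3.89, SE 0.57, edgeR adjusted p = 1.75e-05). Ctsb (-2.04) and Ctsd (-1.84), both lysosomal proteases, were lower as well. Ctss, the cathepsin that makes the last cuts of the invariant chain, was not called, at 20.5 and 22.2 against 8.80 and 12.6, and Ifi30, the thiol reductase of endosomes, was at 5.47 and 9.95 against 9.53 and 9.13. Over the 20 genes the median was -1.08, where it was 0.50 for the 9 class II genes.

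In T cells 5 of the 7 processing genes were lower than in macrophages and 0 higher: Ctss (log2 fold change -2.02), Ctsb (-2.07), Lgmn (-2.52), Ifi30 (-1.59) and Ctsd (-1.47). Of all genes 1.49% were lower and 1.04% higher. Ctss stood at 2.94 and 7.99 per 10000 in T cells, and at 20.5 and 22.2 in macrophages. In Ptprc-negative barcodes 6 of 7 were lower and 1 was higher, beside 20.6% and 15.9% of all genes. That gene was Ctsl, the cathepsin that trims the invariant chain in thymic epithelium, at 5.55 and 24.2 against 3.40 and 4.48 (1.82, SE 0.35, edgeR adjusted p = 4.03e-05).

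Genes of surface turnover and of interferon gamma input completed the list. March1, the ligase that removes class II from the surface, and Cd83, which protects it, were lower in Ptprc-negative barcodes (-3.89 and -3.78), and neither was called in T cells or type 2 dendritic cells. Of 6 interferon gamma genes, Ifngr1, Ifngr2 and Ifng were lower in Ptprc-negative barcodes by edgeR (-2.11, -1.67 and -3.24), 3 of 6 beside 20.6% of all genes, and 0 of 6 were called in T cells or type 2 dendritic cells. Of the promoter factors that work with Ciita (Rfx, Nfy and Creb1 genes), 0 of 5 tested were called in any of the 3. By library, Ifng was at 0.0228 and 0.238 in macrophages and at 0 and 0.852 in T cells, the last from 0 and 16 UMIs. Whether this bears on the class II levels of the libraries was not tested.

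The genes whose levels ran most like the chains across classes were ranked by the lower of the libraries' Pearson correlations, over 6 classes in replicate 1 and 5 in replicate 2, on log2 of CPM plus 10. Cells of a library share its depth and free RNA, so this is a description. Outside the 9 genes the nearest 8 of 7042 were Alox5ap (0.940), Btg2 (0.929), Cyth4 (0.929), Crip1 (0.918), Tmsb4x (0.917), Kctd12 (0.917), Actb (0.917) and Itgb2 (0.914). Each of the 8 was lowest in Ptprc-negative barcodes in both libraries. Tmsb4x, for example, was at 10.2 and 25.3 there and at 205 and 240 in macrophages. The part of this 1 low class in the correlations was not tested. Alox5ap, which supports leukotriene synthesis, was at 3.33 and 2.85 per 10000 in macrophages, 4.91 and 4.92 in type 2 dendritic cells and 0.230 in Ptprc-negative barcodes of each library. Among the members outside the chains and Cd74, H2-DMa reached 0.919, H2-DMb1 0.892, H2-DMb2 0.810, H2-Oa 0.654 and Ciita 0.602.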

How the data were processed

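Per the file headers, the deposited matrices hold raw UMI counts for each gene and barcode, with no scaling. Tools named in the submitters' processing notes are Cell Ranger 6.0.1 and Seurat 4.0.1, with build mm10. The authors' annotation is not stated there, nor is the role of Seurat. Python 3.11.15 read the counts. Barcodes were kept at 300 or more genes and under 10% mitochondrial UMIs (2388 and 2837). Scrublet in scanpy 1.11.5, run per library, called 8 and 41 doublets, which were left out. Only 0.335% of replicate 1 was called, so doublets can remain there.

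Gates were set on raw UMIs. Barcodes of 2 gates kept are those that pass the macrophage gate and 1 other. A barcode passing several gates (9.03% and 9.23%) or none (15.0% and 22.7%) was in no class. Beside the gates given with the results, type 1 dendritic cells had 1 or more Xcr1 UMI, mature ones 2 or more Ccr7 and plasmacytoid ones 2 or more Siglech. Neutrophils had 10 or more S100a8 and S100a9 and 1 or more Csf3r, Cxcr2 and Retnlg UMIs. Counts were summed per class and library and fitted with edgeR 4.0.16 (quasi-likelihood test, TMM, filterByExpr, R 4.3.3), with Benjamini-Hochberg adjustment over all genes tested and a threshold of 0.05. The fit had 8 sums and 3 residual degrees of freedom, or 14 and 6 with barcodes of 2 gates kept. The library was a block, because all classes of a library come from the same sort and 10x run. DESeq2 1.42.0 was an alternative. Values of 1 library by itself are differences of log2 CPM with a prior count of 2, scaled by TMM over the genes that passed the filter, with no test. Simulated counts served to check the edgeR fit of type 2 dendritic cells against macrophages. All simulated sums had the same expression profile, apart from genes changed in type 2 dendritic sums. They held no differences of expression between libraries, so they are no check of the fits under such differences. The standard error is the log2 fold change over the square root of edgeR's F.

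The 9 genes were always named, other pathway genes where called or given as a role, and the 8 nearest genes by rank. A few listed genes are not reported here and were left out of every list value. Members and lists were chosen with earlier results of these data known. The planned tests of type 1, mature and plasmacytoid dendritic cells and neutrophils had under 10 barcodes in a library. All but the plasmacytoid test were run with barcodes of 2 gates kept, and that use was chosen after seeing the data, as was the split of macrophages by the larger sum. DNA motifs were searched in RefSeq promoters, and transcripts were aligned with Biopython 1.88.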

Additional observations from a re-analysis of the deposited data

How the results depend on the processing

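Without the replicate block, 0 of 9 genes were called in type 2 dendritic cells and 0 in T cells against macrophages by edgeR (3 and 5 at an unadjusted p under 0.05), and the 9 Ptprc-negative calls were kept. The type 2 count was 2 without the Ptprc-negative sums and 2 with T cells of C1q 0. The T cell count was 2 without the Ptprc-negative sums, 6 with no filter, a C1q gate of 3 or more, 1 UMI more per dendritic gate or T cells of C1q 0, and 0 with DESeq2, C1q of 10 or more (5 at an unadjusted p under 0.05 in each) or barcodes of 2 gates kept. With 2 gates kept, mature dendritic cells against macrophages had 0 calls with RLE, DESeq2 or no block (2 at an unadjusted p under 0.05 in each), 3 with no filter and 2 without Ptprc-negative sums. Against type 2 cells they had 1 with RLE or DESeq2, 0 with no block and 5 with no filter. Neutrophils had 4 with no filter. TMM placed the median of all genes for mature dendritic cells against macrophages at -0.67 and RLE at -0.15.

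With both libraries in the fit, signs turned only in values that were not called. H2-DMb1 in type 2 dendritic cells was -0.028 under a stricter cell filter and -0.15 thinned. In T cells H2-DMb2 was -0.085 with 2 gates kept and -0.29 thinned, and H2-Oa -0.012 with no filter, -0.0066 with C1q of 10 or more, -0.29 with 2 gates kept and -0.32 thinned. With no filter type 1 dendritic cells gave -0.11 for H2-Aa, -0.15 for H2-DMa, -0.067 for H2-DMb1 and -0.12 for Ciita, and neutrophils -0.010 for H2-DMb2. Ciita in mature dendritic cells was 0.067 with RLE and 0.050 with DESeq2. The cause was not tested. Leaving out a library leaves no test.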
